A study of Homo sapiens with 12 samples.

Results

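MALAT1, NEAT1 and UCA1 are long noncoding RNA (lncRNA) genes, whose transcripts carry no long reading frame. They were chosen by symbol in the deposited count table and are 3 of its 16271 gene IDs and 3 of the 1877 that GENCODE v29 types as lncRNA. Total RNA of HaCaT cells, an immortalised human keratinocyte line, was sequenced in 12 libraries, 3 in each of 4 groups. VDR, which encodes the nuclear vitamin D receptor, was intact (wild type) or knocked out. Cells of either genotype were left untreated or were given 1,25(OH)2D3, the hormone form of vitamin D, for 8 h. Every group was grown in DMEM with 10% fetal bovine serum and shares the HaCaT background. The sources used here do not give the dose, the vehicle, the altered part of VDR or how many clones make up the knockout, so a clone and the genotype cannot be told apart. The labels place the replicates in a 6-well plate and do not say that they were separate cultures, so p-values reflect only how far these libraries spread, which may be technical.

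MALAT1 is retained in the nucleus, where it gathers in nuclear speckles, bodies rich in splicing factors. NEAT1 is the scaffold of paraspeckles, neighbouring nuclear bodies that assemble on its long isoform together with RNA-binding proteins such as SFPQ, NONO and PSPC1. UCA1, named for urothelial carcinoma, is a spliced RNA found largely in the cytoplasm and best known for its high levels in carcinomas. MALAT1 and the long NEAT1 isoform are not finished by ordinary polyadenylation: RNase P cuts at a tRNA-like structure, and a U-rich and an A-rich stretch fold into a triple helix that shields the new 3′ end.

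On GRCh38, NEAT1 lies at chr11:65422774-65445540 and MALAT1 at chr11:65497688-65506516, both on the plus strand, with 52147 bases between them. UCA1 lies at chr19:15828206-15836326, also on the plus strand. The exons of each gene, merged over its transcripts, cover 22767 bp for NEAT1 (8 transcripts), 8829 bp for MALAT1 (17 transcripts) and 4152 bp for UCA1 (36 transcripts). All are intergenic by annotation type, and a gene-level count does not separate the short from the long NEAT1 isoform. The 3′ ends are shown because they set the finishing of MALAT1 and NEAT1 apart from that of UCA1. Each run is 100 bases of a GENCODE v29 transcript on GRCh38, written 5′ to 3′ as DNA. Capitals mark the longest stretch shared by the MALAT1 and NEAT1 ends, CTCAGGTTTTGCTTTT (16 bases), and the A-rich stretch that follows it in both, AAAAAGCAAAA (11 bases).
MALAT1-202 (chr11:65506017-65506116, plus strand): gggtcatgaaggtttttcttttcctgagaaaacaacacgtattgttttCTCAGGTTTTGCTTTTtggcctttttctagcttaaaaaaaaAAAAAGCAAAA
NEAT1-202 (chr11:65445441-65445540, plus strand): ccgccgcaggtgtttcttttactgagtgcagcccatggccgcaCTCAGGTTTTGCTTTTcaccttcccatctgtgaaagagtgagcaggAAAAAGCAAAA
UCA1-201 (chr19:15836215-15836314, plus strand): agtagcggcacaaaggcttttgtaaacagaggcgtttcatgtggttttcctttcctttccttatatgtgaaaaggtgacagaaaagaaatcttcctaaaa
The NEAT1 run is the end of its 22743-base transcript, in 1 exon, and the UCA1 run the end of a 2025-base transcript of 3 exons. The MALAT1 run stops 353 bases before the annotated end of the 8708-base transcript, which continues past the A-rich stretch. These letters were found by comparing the sequences themselves, on the transcript strand only. Of 29546 lncRNA transcripts of at least 100 bases, 1 (NEAT1-202) held the 16-base stretch in its last 100 bases, and 14 held the 11-base one. Both stretches were taken from the end of NEAT1-202, so that transcript was bound to match. The 16-base match in MALAT1-202 was not counted, because it lies outside the last 100 bases. These counts therefore do not measure how rare either stretch is. Neither occurs in the UCA1 run, which says only that those letters are not in that window.

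Total counts per library ranged from 11485031 to 15992792. Of 10 keratinocyte markers (KRT5, KRT14, TP63 and others), all 10 were in the table. Their summed level was 4039 to 4538 CPM (counts per 1000000 counts of the library) in untreated and 4187 to 4230 in treated wild type libraries, against 2048 to 2168 and 1758 to 1996 in knockout ones. Of markers of other cell types the table held 3 of 6 for fibroblasts (summed 2.04 to 20.2 CPM over the libraries), 1 of 5 for melanocytes (0.522 to 1.61), 1 of 5 for immune cells (CD68, 3.70 to 14.5) and 1 of 4 for endothelial cells (CDH5, 2.56 to 7.86). Defining markers with no entry included COL1A2, DCN, PDGFRA, MLANA, TYR, DCT, SOX10, PTPRC, CD3E, CD14, PECAM1, VWF and KDR. VDR itself was still counted in knockout cells, at 77.6 ± 4.07 (SD, n = 3) untreated against 103 ± 3.81 in wild type (CPM scaled as below). The order was reversed with hormone, at 82.8 ± 3.02 in knockout and 71.0 ± 3.62 in wild type cells. With the altered part unknown, the gene-level count of VDR does not check the label. CYP24A1, the hormone-induced enzyme that breaks the hormone down, went from 48.0 ± 2.88 to 1676 ± 61.1 in wild type cells and stood at 16.9 ± 4.83 and 12.2 ± 0.232 in untreated and treated knockout cells. Among replicates, untreated wild type replicate 3 stood apart: its counts differed from those of the other two with a chi-square per gene of 21.7 and 22.7, against 4.68 to 10.7 in all other pairs of a group.

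MALAT1 had more counts than any other gene in 12 of 12 libraries, and NEAT1 came next in 12 of 12. MALAT1 took 2.96 to 4.39% of all counts and NEAT1 0.299 to 0.781%. By counts pooled over the libraries the next lncRNA was MIR205HG, the host gene of miR-205, with 0.0919 to 0.295%. UCA1 took 0.00110 to 0.00419%, between ranks 6807 and 10747 of all genes and between 221 and 473 of the lncRNA genes. It was therefore not among the abundant RNAs of these libraries. Shares carried exact binomial (Clopper-Pearson) 95% intervals of at most ± 0.0108 percentage points for MALAT1 and ± 0.00475 for NEAT1. The widest UCA1 interval reached 17.9% of its value to either side. These cover counting error only. The library preparation is not given, so the shares, ranks and ratios given here describe the libraries and need not match levels in the cells.

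Per length the order stayed the same but the gaps changed. CPM were scaled by TMM, which corrects library totals for composition, and divided by the exon length in kb. MALAT1 averaged 4080 scaled CPM per kb over the 12 libraries, rank 1 of 1491 tested lncRNA genes and 9 of 14135 genes with a length. NEAT1 averaged 240, rank 24 of the lncRNA genes and 151 of all. It was passed by short RNAs such as SCARNA2 (1231), which guides the modification of small nuclear RNAs, and TERC (577), the RNA of telomerase, and by MIR205HG (479). UCA1 averaged 6.41 scaled CPM per kb, rank 610 of the lncRNA genes and 8468 of all. These levels divide by all annotated exons: with the longest UCA1 transcript as length its level would be 9.90, and with the shortest 50.0. Annotated NEAT1 transcripts run from 512 to 22743 bases and the counts do not separate them, so the NEAT1 rank holds for the merged exons only.

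**Figure D1:**
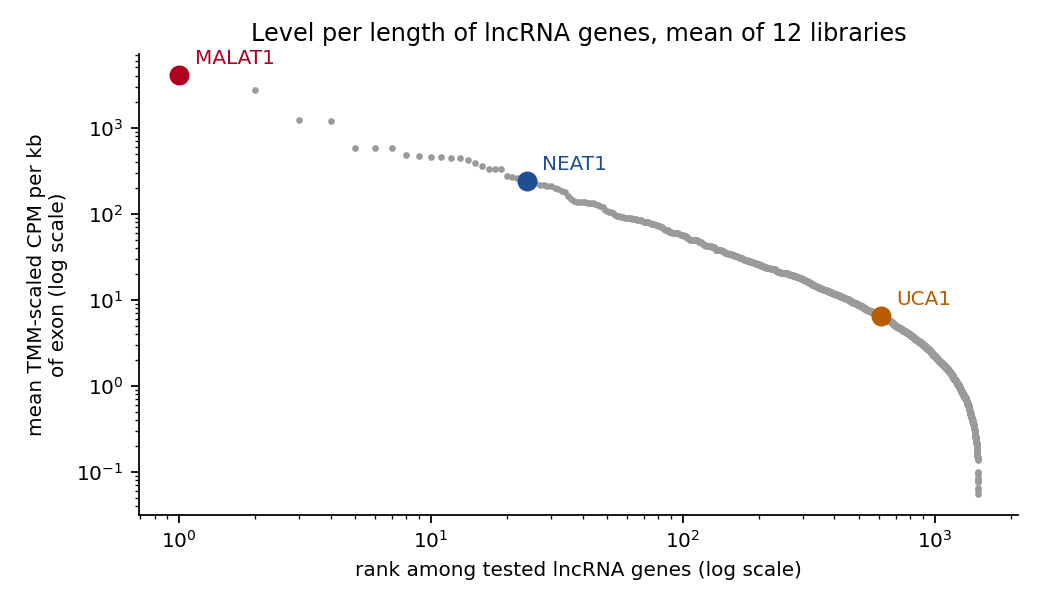
Mean TMM-scaled CPM per kb of exon over 12 libraries (log axis) against rank among 1491 tested lncRNA genes (log axis), one grey point per gene with the 3 named genes coloured. MALAT1 stands at rank 1, NEAT1 at rank 24 and UCA1 at rank 610.

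The members also differed in how far they varied. From the lowest to the highest library, scaled CPM spanned 1.36-fold for MALAT1, 2.83-fold for NEAT1 and 3.50-fold for UCA1. The coefficient of variation over the 12 libraries was 10.4% for MALAT1, 36.8% for NEAT1 and 41.2% for UCA1. Across the 12 libraries the log2 levels of NEAT1 and UCA1 ran opposite (Pearson r = -0.83), while MALAT1 had r = 0.11 with NEAT1 and 0.22 with UCA1. These are descriptions over libraries that fall into the study's groups and share their scaling.

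**Figure D2:**
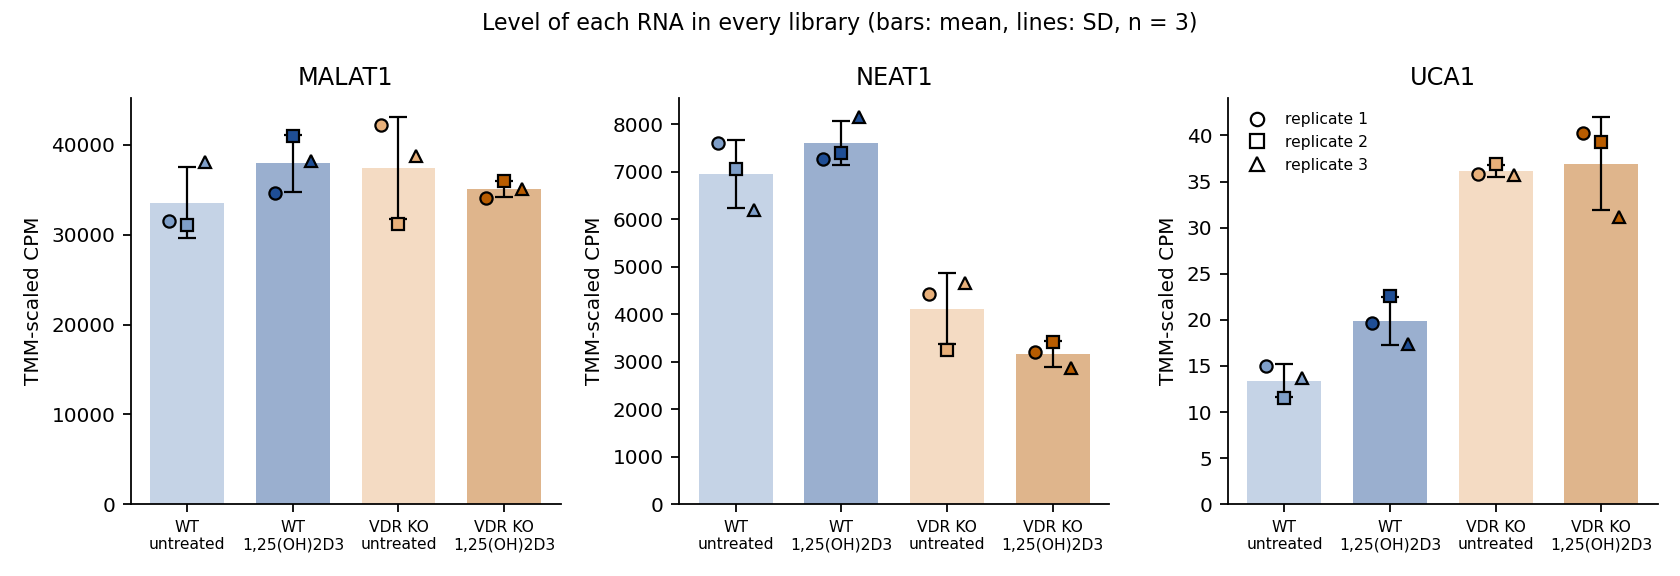
TMM-scaled CPM of MALAT1, NEAT1 and UCA1 (axes from 0) in each of the 12 libraries, with bars for group means, lines for SD (n = 3) and marker shapes for replicate numbers. All groups overlap for MALAT1, NEAT1 is lower in every knockout library than in any wild type one, and UCA1 is higher in every knockout library than in any wild type one.

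MALAT1, the speckle RNA, showed no change past the threshold in any comparison. Its level was 31584, 31041 and 38157 scaled CPM in untreated wild type replicates 1, 2 and 3, and 34688, 41034 and 38214 in treated ones. In knockout cells it was 42235, 31243 and 38824 untreated and 34146, 35955 and 35116 treated. The 4 groups overlapped, and the treated knockout libraries lay closest together. Counts of all 14676 genes that passed a filter on low counts were tested with edgeR's quasi-likelihood F test, and p-values were adjusted by Benjamini-Hochberg over those genes, with a threshold of 0.05. A ± on a log2 fold change is its standard error, and each group has n = 3.

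With hormone, MALAT1 had a log2 fold change of 0.18 ± 0.11 in wild type cells (95% interval -0.05 to 0.41, adjusted p = 0.255) and -0.09 ± 0.11 in knockout cells (-0.33 to 0.14, adjusted p = 0.657). Between knockout and wild type the log2 fold change was 0.16 ± 0.11 untreated (-0.08 to 0.39, adjusted p = 0.213) and -0.11 ± 0.11 treated (-0.35 to 0.12, adjusted p = 0.348). The intervals leave room for changes of up to about 0.4 on the log2 scale. Untreated knockout replicate 2, with the lowest knockout value, decided the untreated comparison: without it the difference was 0.27 (adjusted p = 0.0232 by edgeR). Untreated knockout replicate 2 was low for MALAT1 and NEAT1 and not for UCA1. With library totals alone as scaling the MALAT1 difference was 0.28 (adjusted p = 0.0306 by edgeR). That scaling moves the median log2 fold change of all genes to 0.13, against 0.01 in the main fit. Part of the 0.28 is therefore a shift shared with the median gene.

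NEAT1, the paraspeckle scaffold, was lower in knockout cells under both conditions. Its level was 7604, 7056 and 6192 scaled CPM in untreated wild type replicates 1, 2 and 3, and 7274, 7400 and 8143 in treated ones. In knockout cells it was 4437, 3256 and 4648 untreated and 3212, 3420 and 2878 treated. Every knockout library lay below every wild type one, while treated and untreated libraries overlapped within each genotype. The share of all genes that separate by genotype in this way is not given here, so the separation does not set NEAT1 apart. In bulk RNA, fewer cells that hold an RNA and less of it per cell cannot be told apart.

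Untreated, NEAT1 was 1.69-fold lower in knockout cells (log2 fold change -0.76 ± 0.12, 95% interval -1.01 to -0.51, adjusted p = 2.81e-05, lower in 3 of 3 libraries). With hormone it was 2.40-fold lower (-1.26 ± 0.12, -1.52 to -1.01, adjusted p = 6.73e-08, lower in 3 of 3). The comparisons between genotypes share no libraries with each other, but each shares a group with the treatment comparisons. Counting both directions, 2 of the 3 members (NEAT1 and UCA1) were called between genotypes untreated, against 69.7% of all genes tested, and 2 of 3 with hormone, against 75.9%. Most genes differed between these genotypes, so a difference there does not set a member apart. Markers moved with the genotype too. Of the 10 keratinocyte markers 9 were lower and 1 higher in untreated knockout cells, against 34.2% and 35.5% of all genes. With hormone 8 were lower and 1 higher, against 37.4% and 38.4%. CD68 was lower in every knockout library (3.70 to 5.71 CPM, against 6.94 to 14.5 in wild type). Its log2 fold change was -1.02 ± 0.18 untreated and -1.85 ± 0.18 with hormone. LUM, with group means of only 0.182 to 2.18 scaled CPM, had -2.15 ± 0.44 and -3.50 ± 0.52. COL1A1, the other fibroblast marker tested, was not called (-0.95 ± 0.97 and -0.40 ± 1.01). The melanocyte marker PMEL was not called either (0.34 ± 0.38 and 0.53 ± 0.34). CDH5 was called lower with hormone and had 0.13 ± 0.21 untreated (not called). Their part in the results for NEAT1 and UCA1 was not tested.

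Within genotype, NEAT1 had a log2 fold change with hormone of 0.13 ± 0.12 in wild type cells (-0.12 to 0.38, adjusted p = 0.455). In knockout cells it was -0.38 ± 0.12 (-0.63 to -0.13, adjusted p = 0.0888, unadjusted p = 0.00568 by edgeR), which did not pass. DESeq2 put that difference at -0.37 (adjusted p = 0.0331), and without untreated knockout replicate 2 edgeR put it at -0.52 (adjusted p = 0.0206). The response in knockout minus that in wild type cells was -0.51 ± 0.17 (-0.86 to -0.15, adjusted p = 0.0345 by edgeR). This difference of responses lost its call when the replicate number was kept as a block (-0.50, adjusted p = 0.0572) and in 7 of the 12 fits that each left out 1 library. Over those 12 fits it ranged from -0.65 to -0.41, with adjusted p from 0.00355 to 0.146. The call was lost without replicate 3 of untreated wild type, 1 or 3 of treated wild type, 1 or 3 of untreated knockout, or 1 or 3 of treated knockout cells.

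UCA1 was raised by the hormone in wild type cells and stood higher in knockout cells, with or without hormone. Its level was 15.0, 11.5 and 13.7 scaled CPM in untreated wild type replicates 1, 2 and 3 (174, 126 and 162 counts). In treated wild type cells it was 19.7, 22.6 and 17.4 (250, 289 and 232 counts). In knockout cells it was 35.8, 36.9 and 35.7 untreated (556, 492 and 595 counts) and 40.3, 39.3 and 31.1 treated (535, 479 and 393 counts). The wild type groups did not overlap each other, the knockout groups did, and every knockout library lay above every wild type one. The share of all genes that separate in this way is not given here, so the separation does not set UCA1 apart.

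In wild type cells UCA1 rose 1.48-fold with hormone (log2 fold change 0.57 ± 0.13, 95% interval 0.30 to 0.83, adjusted p = 0.00403, higher in 3 of 3 libraries). It was the 1 member of 3 called there, against 24.5% of all genes tested, and 11.5% called higher. CD68 (0.58 ± 0.16) and CDH5 (0.82 ± 0.21) also rose there, and their part in the UCA1 result was not tested. In knockout cells the hormone gave 0.03 ± 0.12 (-0.21 to 0.27, adjusted p = 0.905 by edgeR). There 0 of 3 members were called by edgeR, against 2.55% of all genes. Both shares moved with single libraries. The 374 genes behind 2.55% became 9 without treated knockout replicate 2 and 2365 without untreated wild type replicate 3 (the lowest and highest of 12 such fits), or 907 by DESeq2. The 3602 genes behind 24.5% became 2392 without treated wild type replicate 1 and 2112 without replicate 3. At an unadjusted p below 0.05 the count was 1 (NEAT1, which DESeq2 also called), as were 3128 of the 14676 genes.

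The UCA1 response in knockout minus that in wild type cells was -0.54 ± 0.17 (-0.90 to -0.18, adjusted p = 0.0283 by edgeR). With NEAT1 this made 2 of 3 members called for a difference of responses, against 26.3% of all genes, and MALAT1 had -0.27 ± 0.15 (adjusted p = 0.211). Without untreated knockout replicate 2 the MALAT1 difference was -0.39 (adjusted p = 0.0456). Leaving out 1 library at a time moved the UCA1 difference between -0.65 and -0.43, with adjusted p from 0.0139 to 0.0698. The call was lost in 6 of the 12 fits: without replicate 2 of untreated wild type, 1 or 2 of treated wild type, 1 or 2 of untreated knockout, or 3 of treated knockout cells.

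Between genotypes, UCA1 was 2.69-fold higher in untreated knockout cells (log2 fold change 1.43 ± 0.12, 1.17 to 1.69, adjusted p = 2.59e-08, higher in 3 of 3). With hormone it was 1.86-fold higher (0.89 ± 0.12, 0.64 to 1.14, adjusted p = 3.08e-06, higher in 3 of 3). These calls, the UCA1 rise in wild type cells and the lower NEAT1 of knockout cells held under all 23 alternative settings. Over those settings the UCA1 rise in wild type cells ranged from 0.47 to 0.67 and its untreated genotype difference from 1.33 to 1.55.

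**Figure D3:**
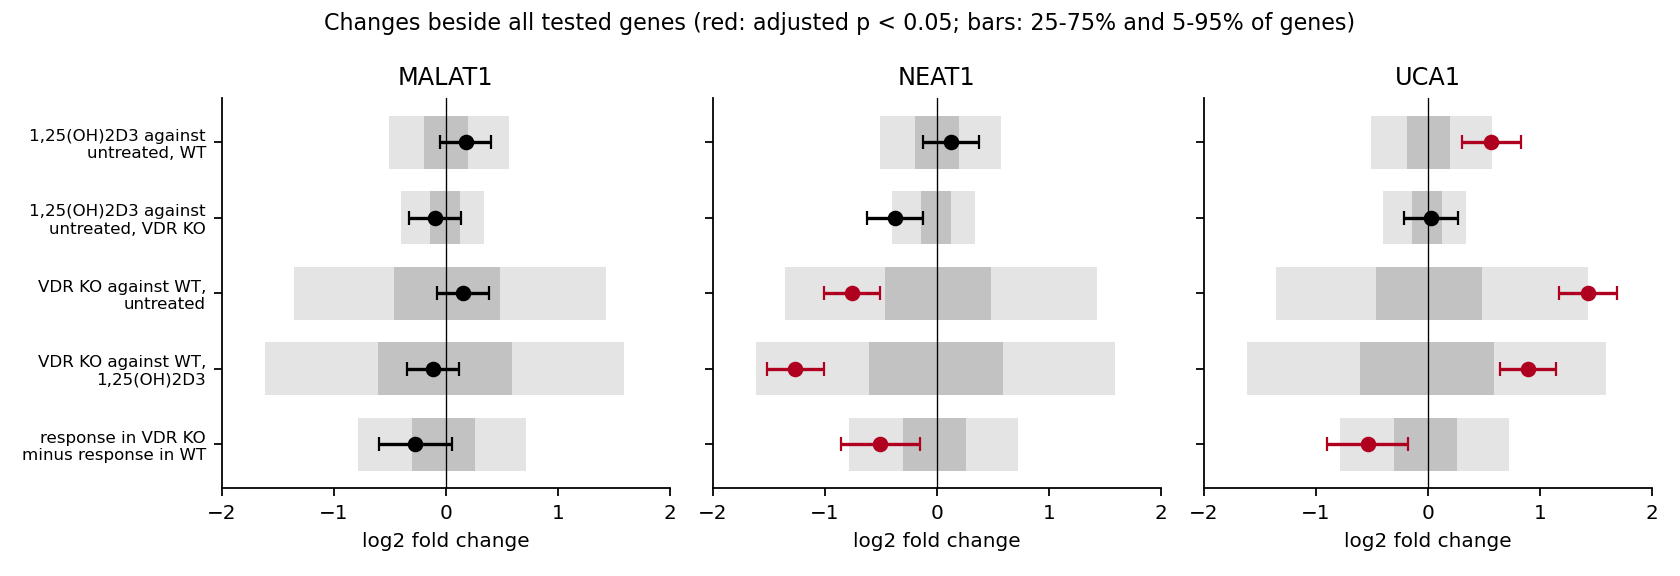
Log2 fold change with 95% interval of each gene in the 5 comparisons, over grey bars for the 25-75% and 5-95% ranges of the 14676 genes tested, red where the adjusted p is below 0.05. UCA1 with hormone in wild type cells (0.57) and between untreated genotypes (1.43) lies at the upper edge of the wider bar, and NEAT1 between genotypes (-0.76 and -1.26) within it.

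The balance between the speckle RNA and the paraspeckle RNA differed between the genotypes. The ratio of MALAT1 to NEAT1 counts within a library, which needs no scaling between libraries, averaged 4.90 ± 1.10 (SD, n = 3) in untreated and 5.00 ± 0.47 in treated wild type cells. In knockout cells it averaged 9.16 ± 0.70 untreated and 11.1 ± 0.94 treated. Wild type libraries ran from 4.15 to 6.16 and knockout ones from 8.35 to 12.2, with no overlap. The highest wild type ratio belonged to untreated replicate 3, the library that stood apart. MALAT1, NEAT1 and UCA1 together took 54.6 ± 1.74% of all lncRNA counts in untreated and 57.1 ± 1.80% in treated wild type cells. In knockout cells they took 50.9 ± 3.72% untreated and 48.7 ± 0.52% treated. All lncRNA genes together took 7.13 ± 0.47% and 7.67 ± 0.29% of counts in untreated and treated wild type cells and 8.50 ± 0.64% and 8.13 ± 0.09% in knockout ones.

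**Figure D4:**
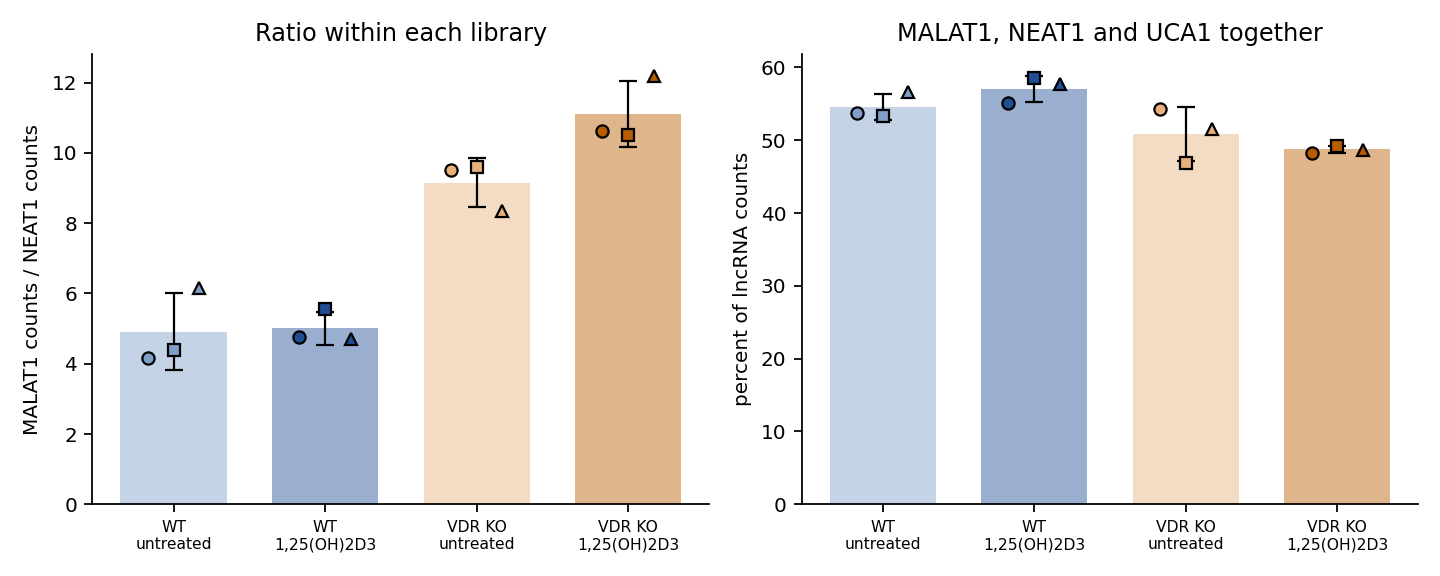
Ratio of MALAT1 to NEAT1 counts (left, axis from 0) and the percent of lncRNA counts taken by MALAT1, NEAT1 and UCA1 together (right, axis from 0) in each library, with bars for means, lines for SD (n = 3) and marker shapes for replicate numbers as in the plot of levels by library. Wild type ratios lie between 4.15 and 6.16 and knockout ratios between 8.35 and 12.2.

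NEAT1 and MALAT1 sit in a gene-dense stretch of chromosome 11 where most counted genes were lower in knockout cells. Of 22 tested genes within 250 kb of either, 12 were lower and 7 higher in untreated knockout cells (median log2 fold change -0.48, against 0.01 over all genes tested, of which 34.2% were lower and 35.5% higher). With hormone, 15 were lower and 3 higher (median -0.66, against 0.02 over all genes, of which 37.4% were lower and 38.4% higher), or 15 and 6 with library totals alone as scaling, which moves the median of all genes to 0.13. Among those lower untreated were FRMD8, upstream of NEAT1, which stabilises iRhom sheddase complexes, at -0.56 ± 0.07 on the log2 scale, and LTBP3, a binder of latent TGF-beta, at -0.69 ± 0.10. RELA, a subunit of NF-kB, had -0.79 ± 0.08 and KAT5, a histone acetyltransferase, -0.98 ± 0.07. POLA2, a subunit of DNA polymerase alpha, was higher (0.77 ± 0.13).

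Between NEAT1 and MALAT1, the pseudogene AP000769.1 was higher in knockout cells by 1.39 ± 0.21 untreated and 1.60 ± 0.22 with hormone. AP000769.7 (now AP000769.2), which lies within MALAT1 on the other strand, had 13 to 29 counts in wild type libraries and 43 to 86 in knockout ones, a difference of 1.36 ± 0.25 untreated (adjusted p = 0.00014) and 2.09 ± 0.26 with hormone. Whether counting used strand is not given, so its reads and those of MALAT1 may not be separable. With its counts added to MALAT1, the untreated genotype difference of MALAT1 was 0.16. MALAT1 had at least 339588 counts per library, so the added counts could hardly move it. That value does not show whether the strands were separated. With hormone in wild type cells 4 of the 22 neighbours were higher and 1 lower, against 11.5% and 13% of all genes. PCNXL3 (now PCNX3) led with 0.70 ± 0.09, and 1 to 6 neighbours were higher when single libraries were left out. In knockout cells 0 were higher and 1 lower by edgeR, against 0.913% and 1.64% of all genes.

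UCA1 has few counted neighbours, and they include coding genes of the CYP4F family, whose enzymes hydroxylate fatty acids and eicosanoids. Within 250 kb 6 genes were tested. In wild type cells 2 of the 6 rose with hormone, against 11.5% of all genes: CYP4F3 by 1.62 ± 0.11 (adjusted p = 2.49e-07) and CYP4F12 by 1.02 ± 0.12 (adjusted p = 3.18e-05). They lie 165 and 131 kb from UCA1. Both carried higher levels in untreated knockout cells, CYP4F3 by 1.42 ± 0.11 and CYP4F12 by 1.39 ± 0.12, and had a lower response to hormone there, at -1.93 ± 0.15 and -1.25 ± 0.16. UCA1 had the same signs in these comparisons, but its lower response lost its call in 6 of 12 fits that left out 1 library.

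In untreated knockout cells 5 of the 6 neighbours were higher and 1 lower, against 35.5% and 34.2% of all genes, or 3 and 1 when only the compared groups were fitted. The others higher were the pseudogenes CYP4F24P (2.49 ± 0.33) and CYP4F23P (3.04 ± 0.66) and AC004510.3 (now LINC01764; 1.16 ± 0.50), which overlaps UCA1 on the other strand with 2 to 22 counts per library. TPM4, a tropomyosin of the actin skeleton, was lower (-1.13 ± 0.14). With hormone the pattern split: 2 were higher and 2 lower, against 38.4% and 37.4% of all genes, and CYP4F3 was lower in knockout cells (-0.51 ± 0.10), unlike UCA1 (0.89). CYP4F genes and pseudogenes are close copies, so reads may have been divided among them.

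**Figure D5:**
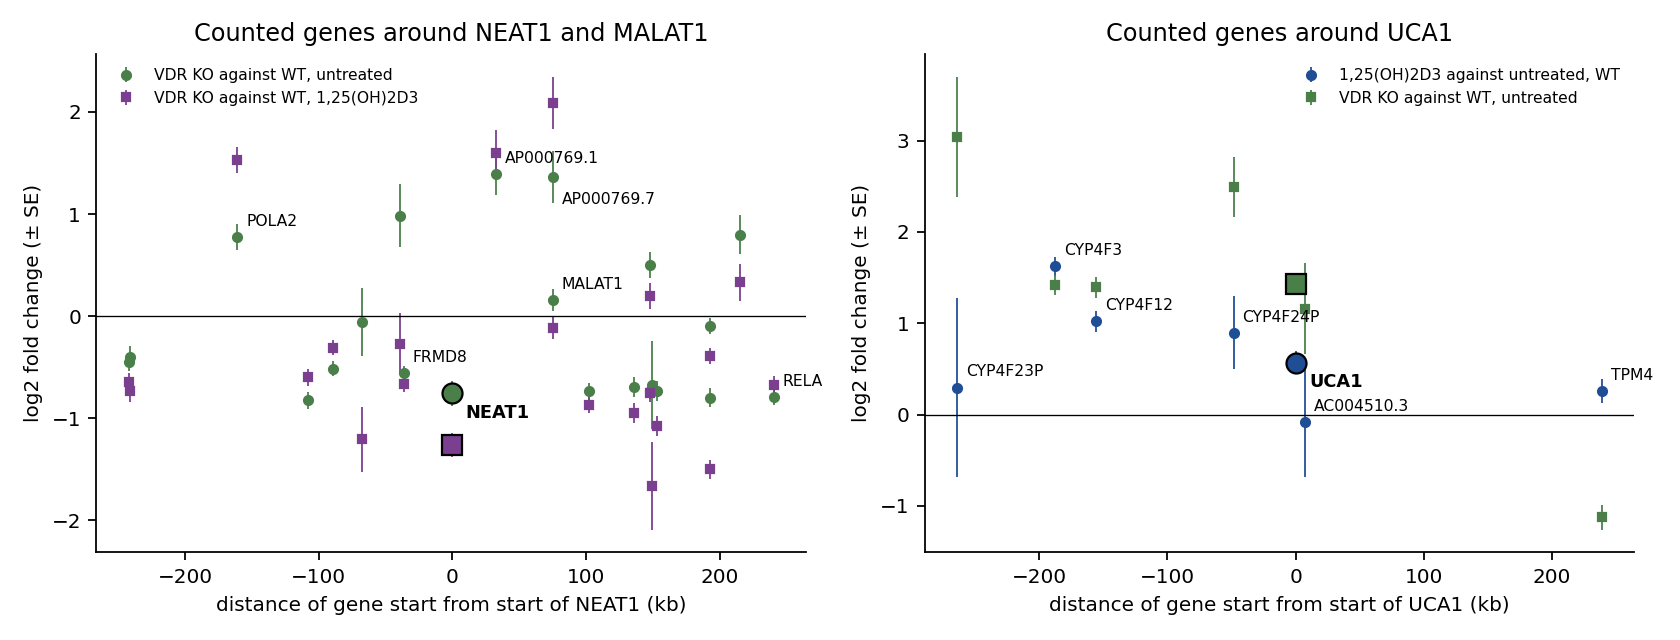
Log2 fold change (± SE) of tested genes within 250 kb of NEAT1 (left) and of UCA1 (right) against the distance of the gene's start from that of NEAT1 or UCA1 in kb, with larger outlined markers for NEAT1 and UCA1 themselves and colours for the comparisons. Between genotypes, untreated or with hormone, most neighbours of NEAT1 lie below 0, and those upstream of UCA1 lie above 0 with hormone in wild type cells and between untreated genotypes.

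Genes for proteins of paraspeckles, which bind NEAT1, went both ways at the RNA level. All 26 listed genes were tested, and in untreated knockout cells 8 were higher and 12 lower (median -0.15, against 0.01 over all genes, of which 35.5% were higher and 34.2% lower). SMARCA4, the ATPase of the SWI/SNF remodeller, was lower at -1.49 ± 0.08, HNRNPUL1 at -0.79 ± 0.07 and HNRNPF, an RNA-binding protein, at -0.71 ± 0.08, while RBM14, needed for paraspeckle assembly, was higher by 1.05 ± 0.07. With hormone 9 were higher and 9 lower, against 38.4% and 37.4% of all genes. SFPQ, a core paraspeckle protein, had -0.72 ± 0.06 there and TAF15, an RNA-binding protein of the FET family, 0.89 ± 0.09. Hormone changed 3 of the 26 in wild type cells, all lower, against 13% of all genes lower and 11.5% higher. They were TAF15 (-0.39 ± 0.09), HNRNPR (-0.27 ± 0.09) and NUDT21 (-0.21 ± 0.07), and 1 to 5 were lower when single libraries were left out. By edgeR 0 of 26 changed with hormone in knockout cells, against 2.55% of all genes.

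Of 24 genes whose proteins sit in nuclear speckles or are reported to bind MALAT1, 14 were higher and 7 lower in untreated knockout cells. These are RNA levels. The median was 0.26, against 0.01 over all genes, of which 35.5% were higher and 34.2% lower. With library totals alone as scaling, 15 were higher and 3 lower. The smallest adjusted p belonged to SRSF5 (0.86 ± 0.08), PNISR (0.83 ± 0.08), HNRNPC (0.83 ± 0.08) and SRSF11 (0.73 ± 0.07), most of them splicing factors. Leaving out untreated wild type replicate 1 gave 13 and 4, and leaving out untreated knockout replicate 2 gave 14 and 4. With hormone the knockout cells had 10 higher and 7 lower, against 38.4% and 37.4% of all genes, among them HNRNPC (1.34 ± 0.08) and U2AF2, which reads the 3′ splice site (-0.87 ± 0.07). METTL16, a methyltransferase that binds the MALAT1 triple helix, was higher there (1.40 ± 0.14). In wild type cells hormone raised 6 and lowered 2, against 11.5% and 13% of all genes, and the number raised fell to 1 without replicate 1, 2 or 3 of the treated wild type cells. The lowered ones were HNRNPC (-0.36 ± 0.08) and METTL16 (-0.52 ± 0.14). Responses to hormone differed between genotypes for 11 of 24, against 26.3% of all genes, with 8 lower in knockout cells, against 12.5%. SRSF2 (-0.74 ± 0.11) and SRSF5 (-0.69 ± 0.11) had the smallest adjusted p.

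RNase P cuts the 3′ ends of MALAT1 and NEAT1, and RNase Z trims the small RNA released. The 12 listed genes had 14 IDs in the table, some with equal counts. Of the 14 IDs 2 were higher and 5 lower in untreated knockout cells, against 35.5% and 34.2% of all genes, or 5 and 4 with library totals alone as scaling. Protein subunits RPP21 (-0.86 ± 0.08) and POP5 (-0.63 ± 0.08) were lower, and the 2 higher IDs were both RPPH1, the RNA subunit (0.87 ± 0.17). With hormone 6 IDs were higher and 4 lower between genotypes, against 38.4% and 37.4%. The 6 hold RPPH1 and RPP14 with 2 IDs each of equal values, so they stand for fewer genes. In wild type cells 1 of the 14 IDs changed with hormone, against 24.5% of all genes. It was RPP30, lower at -0.46 ± 0.10.

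Transcription factors and other genes reported to regulate NEAT1 numbered 10, of which 5 were higher and 2 lower in untreated knockout cells, against 35.5% and 34.2% of all genes. HSF1, the heat shock factor, was lower (-1.12 ± 0.09), and HIF1A (0.60 ± 0.07) and BRCA1 (0.57 ± 0.10) were higher. With hormone in wild type cells 2 rose and 3 fell, against 11.5% and 13% of all genes, with RUNX1, a transcription factor of blood and epithelia, at -0.90 ± 0.10. RUNX1 responded differently in knockout cells, by 1.12 ± 0.14. Of 9 reported partners and regulators of UCA1, 4 were higher and 2 lower in untreated knockout cells, against the same shares, or 5 and 0 with library totals alone. HIF1A had the smallest adjusted p. TEAD1, the DNA-binding partner of YAP, fell with hormone in wild type cells (-0.31 ± 0.07) and was higher in knockout cells, by 0.44 ± 0.07 untreated and 1.05 ± 0.07 with hormone.

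Other well-known regulatory lncRNAs were set beside the members. Of 28 listed, 22 IDs were tested, and 12 were higher and 3 lower in untreated knockout cells (median 0.65, against 0.01 over all genes, of which 35.5% were higher and 34.2% lower). LINC00657 (now NORAD), which binds PUMILIO proteins, was higher by 1.44 ± 0.09, CDKN2B-AS1 by 1.50 ± 0.13 and OIP5-AS1 by 1.01 ± 0.09, and PVT1, a neighbour of MYC, was lower at -0.92 ± 0.07. UCA1 was higher there by 1.43 and NEAT1 lower at -0.76. With hormone in wild type cells 5 IDs rose, among them LINC00657 (0.61 ± 0.09) and 2 IDs of TERC with equal counts (0.87 ± 0.12), and 2 fell, among them ZFAS1 (-0.35 ± 0.07), against 11.5% and 13% of all genes.

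The genes whose level followed each member most closely over the 12 libraries differed by member. For NEAT1 they were PKP1, a desmosomal plaque protein (Pearson r = 0.992 of log2 CPM), PDCL3 (0.985), SFXN3 (0.985), GNAS (0.984) and GPNMB (0.983), out of 14167 genes compared. For UCA1 they were RP11-390B4.5 (now STAM-AS1; 0.990), TMEM91 (0.983), C20orf96 (0.982), DNAJC27-AS1 (0.982) and DUSP10, a MAP kinase phosphatase (0.979). DUSP10 averaged 38.3 and 86.7 scaled CPM in untreated and treated wild type cells and 272 and 307 in knockout ones. For both members the libraries fall into the genotypes, and 2053 genes exceeded r = 0.9 with NEAT1 and 962 with UCA1. For MALAT1 0 genes did, and the closest were TMEM237 (0.889), FRA10AC1 (0.863), ANKRD42 (0.834), MUT (0.831) and DZANK1 (0.826).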

How the data were processed

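Raw counts of reads for each gene in each library were deposited by the authors, with a second deposited table of CPM, equal to a count over its column's total to within 0.005. Both carry human Ensembl IDs and symbols, per the file headers. BWA 0.5.9 and mm9, a mouse build, are named per the submitters' processing notes. Since the IDs are human, the sources used here do not settle the build, and they give no library preparation, strand, counting tool or annotation. Positions, lengths, types and sequences come from GENCODE v29 (GRCh38), where 15524 IDs were found and 747 were not.

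Libraries were grouped by their labels. In R 4.3.3, edgeR 4.0.16 (TMM factors 0.9502 to 1.057, filterByExpr, which set aside 1595 of 16271 genes, robust quasi-likelihood F test, common dispersion 0.0117) was fitted to all 12 libraries with 4 group means, for 5 comparisons: hormone against none within either genotype, knockout against wild type with and without hormone, and the difference of responses. A standard error is |log2 fold change| over the root of F. The fit was also run on simulated counts with the same dispersion for every gene and no genotype difference. These data differ from that setting, so that run does not vouch for the fit to them. Alternatives were other scalings and filters, DESeq2 1.42.0, limma 3.58.1 on log2 of the deposited CPM plus 1, the compared groups alone, a replicate block and each replicate left out; adding the antisense counts, and leaving MALAT1 and NEAT1 out of the totals, were chosen after seeing the data.

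Text names the 3 members, tested genes within 250 kb, up to 4 genes per list with the smallest adjusted p and, per member, the 5 genes with the highest r among those with a mean of at least 1 CPM (prior count 2). Some genes that meet this rule are not reported here. Members and lists were chosen with earlier results of these data known. Deposited enrichment tables name 0 of the members and were not used.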

Additional observations from a re-analysis of the deposited data

Results flagged for a closer look

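The response to 8 h of hormone passed a test of its difference between the genotypes for UCA1 and for NEAT1, with calls that depend on single libraries. For UCA1 the response in knockout cells minus that in wild type cells was -0.54 ± 0.17 on the log2 scale (adjusted p = 0.0283 by edgeR), from 0.57 in wild type and 0.03 in knockout cells. For NEAT1 it was -0.51 ± 0.17 (adjusted p = 0.0345 by edgeR), from 0.13 and -0.38, neither of which passed the threshold on its own. Leaving out 1 library at a time ended the UCA1 call in 6 of 12 fits (adjusted p up to 0.0698 by edgeR) and the NEAT1 call in 7 of 12 (up to 0.146), and the replicate block ended the NEAT1 call as well (adjusted p = 0.0572).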

How the results depend on the processing

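Over 23 alternative settings the 15 member tests gave 342 values: 318 kept their direction and side of the threshold, 21 changed side and 3 changed sign, in tests that had not passed. With library totals alone or limma, MALAT1 passed between untreated genotypes (0.28 and 0.27). Those settings also moved the median of all genes, to 0.13 and 0.12, against 0.01 in the main fit. With the compared groups alone MALAT1 passed between treated genotypes (-0.12). With DESeq2 NEAT1 passed in knockout cells (-0.37), and with the replicate block its difference of responses no longer did (-0.50). Replicate numbers do not pair the libraries: 1 of 18 same-numbered pairs correlated above 0.1 (range -0.175 to 0.121), and 0 libraries correlated best with their own number.

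With 1 library left out in turn, values with hormone in knockout cells ran from -0.21 to 0.0014 for MALAT1 (above 0 without untreated knockout replicate 1), from -0.52 to -0.28 for NEAT1 and from -0.038 to 0.14 for UCA1 (below 0 without treated knockout replicate 1, at -0.038, or 2, at -0.02). Between untreated genotypes MALAT1 ran from 0.061 to 0.27. The difference of responses ran from -0.39 to -0.18 for MALAT1, -0.65 to -0.41 for NEAT1 and -0.65 to -0.43 for UCA1, and without untreated knockout replicate 2 it passed for MALAT1 (-0.39, adjusted p = 0.0456 by edgeR).

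Genes called with hormone numbered 3602 in wild type cells (2218 with the compared groups alone, 2112 to 3795 over the leave-outs, lowest without treated wild type replicate 3). In knockout cells they numbered 374 (907 with DESeq2, 1775 with the compared groups alone, 143 with the block, 9 to 2365 over the leave-outs), so single libraries set that background: it was 9 without treated knockout replicate 2 and 2365 without untreated wild type replicate 3. The cause of these changes was not tested. Per kb of the shortest transcript, levels were 272877 for MALAT1, 10664 for NEAT1 and 50.0 for UCA1, and 9.90 for UCA1 by its longest. UCA1 is limited most by depth, with 126 to 595 counts per library.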
